A study of Drosophila melanogaster with 4 samples.

Results

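This account covers H3K27ac in parts of the Drosophila melanogaster genome that lie near the centromeres, and on chromosome 4. The chromatin came from wild-type larvae of the third instar, strain Oregon-R, and was precipitated with a polyclonal rabbit serum raised against a peptide of histone H3 with acetylated lysine 27. There were 2 ChIP replicates and 2 input samples, all of that strain, stage and genotype. Enriched regions are listed separately for either ChIP replicate and once more for the replicate set. No list of the inputs was used here.

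Regions of the replicate set were chosen by position alone. They are those on chromosome 4, those on the sequences that FlyBase release 5 names 2LHet, 3LHet, 3RHet, XHet and YHet, and those starting beyond 20.5 Mb on 2L, 22 Mb on 3L or 20 Mb on X. By the usual orientation of these arms, the last 3 stretches are their centromere-proximal ends. The rule did not take in 2RHet, which had 17 regions in the set, nor any part of 2R or 3R. The rest of the arms, used below for comparison, thus includes the centromere-proximal parts of 2R and 3R. The rule chose 327 of the 6270 enriched regions: 74 on chromosome 4, 44 on the Het sequences and 209 at the arm ends. None of the 3 regions listed as depleted lay there. The labels speak of homogenised tissue without naming organs, and in such bulk chromatin a site acetylated in fewer cells and a site acetylated less in each cell cannot be told apart. Separate collections of larvae for the replicates are not stated, so the spread between them may be technical.

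H3K27ac is a mark of active promoters and enhancers, placed by CBP-type acetyltransferases. Pericentric heterochromatin is its usual counterpart: it is rich in repeats and carries methylated H3K9 bound by HP1a. Genes are sparse there, and many have long introns filled with repeats, yet some are essential and are transcribed. Chromosome 4, the dot chromosome, mixes both features, with HP1a along most of its length and genes interspersed with repeats. The Y is heterochromatic and carries few genes, several of them needed for male fertility.

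All of these parts held listed regions, but unequally. Enriched regions covered 14.8% ± 0.020 of chromosome 4, 10.6% ± 0.363 of the arm ends together and 1.62% ± 0.037 of the Het sequences together, against 22.3% ± 0.938 of the rest of 2L, 2R, 3L, 3R and X (SD, n = 2 replicates throughout). The whole group was covered to 7.48% in replicate 1 and 7.20% in replicate 2, against 22.9% and 21.6% of the rest of the arms, a mean difference of -14.9 percentage points ± 0.738. Each of the 9 sequences or ends lay below the rest in both replicates. The exact two-sided permutation test over replicates, which flips the sign of each replicate's difference, cannot go below p = 0.5 with n = 2, so no difference between parts of the genome could be called here. These are shares of all bases of a sequence, and on how many of them reads could be placed is not known.

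**Figure D1:**
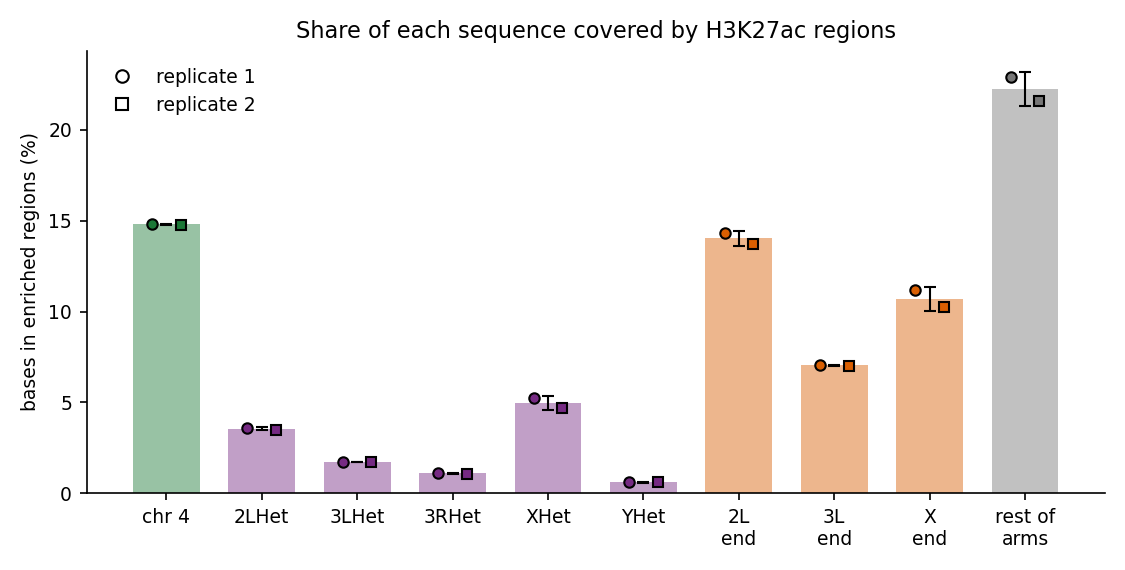
Share of bases (%) inside enriched regions of chromosome 4, of each Het sequence, of the 3 arm ends and of the rest of the large arms. Bars are means of the 2 replicates, error bars are SD, circles are replicate 1 and squares replicate 2. The means run from 0.594% on YHet to 14.8% on chromosome 4, with 22.3% in the rest of the arms.

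Among the Het sequences the order was XHet at 4.98% ± 0.390, 2LHet at 3.55% ± 0.088, 3LHet at 1.72% ± 0.020, 3RHet at 1.10% ± 0.025 and YHet at 0.594% ± 0.009 (SD, n = 2). Neighbours in this order differed by more than the spread between replicates, and each pair kept its order in both replicates. YHet rests on 1 region in each list. Among the arm ends the order was 2L at 14.0% ± 0.414, X at 10.7% ± 0.658 and 3L at 7.04% ± 0.033. The end of 2L was covered to 14.3% in replicate 1 and 13.7% in replicate 2, while chromosome 4 was covered to 14.8% in each. These last 2 parts lay close in coverage and differed in make-up. Chromosome 4 had 45.1 ± 2.09 regions per Mb that were 2539 ± 136 bp wide at the median, and the end of 2L had 32.8 ± 1.41 regions per Mb that were 3195 ± 25.5 bp wide at the median.

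What was listed scored much like regions elsewhere. Scores are the authors' own, on a log2 scale with an unknown zero, so only differences between them can be read. The median score of the group was 0.85 in replicate 1 and 0.87 in replicate 2, against 0.84 and 0.82 in the rest of the arms. The difference, 0.03 ± 0.03 on the log2 scale, was about as large as the spread between replicates. On chromosome 4 its sign differed between replicates, with -0.07 in replicate 1 and 0.02 in replicate 2. The Het sequences together lay above the rest in both, by 0.20 and 0.10, but the sign differed between replicates on 2LHet, with -0.05 and 0.13, and on XHet, with 0.11 and -0.13. Medians above the rest in both replicates were also found at the ends of 2L, by 0.03 and 0.09, and X, by 0.07 and 0.08. The end of 3L lay below in both, by -0.06 each.

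**Figure D2:**
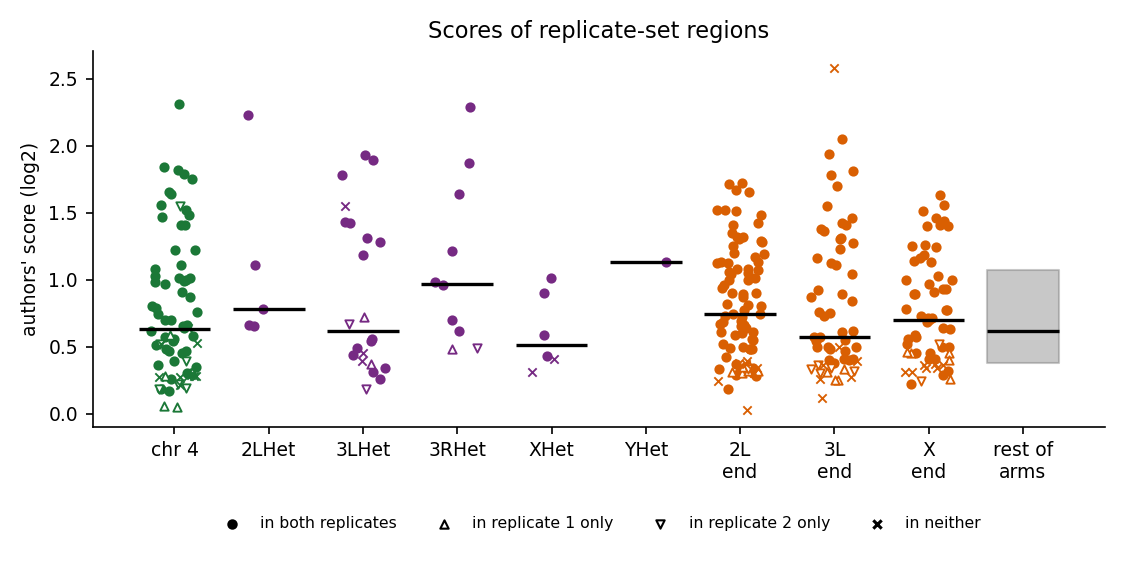
The authors' score (log2) of every replicate-set region on chromosome 4, the Het sequences and the arm ends, with the replicates in which it was listed. Black lines are medians, and the grey box is the interquartile range of the 5885 regions in the rest of the arms. Most regions missing from a replicate had low scores, apart from a cross at 2.58 on the end of 3L, a cross at 1.55 on 3LHet and an open triangle at 1.55 on chromosome 4.

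Widths differed more. The median region of the group was 2781 ± 48.4 bp wide, against 3170 ± 40.0 bp in the rest of the arms (SD, n = 2), and lay lower in both replicates, with differences of -451 bp and -326 bp. The end of 2L was an exception, since its median lay above the rest by 15 bp in replicate 1 and 35.5 bp in replicate 2. Each of the other sequences and ends lay below the rest in both replicates. The Het sequences had a median of 2424 ± 50.9 bp. No Het region of either replicate reached 10 kb, while 6.81% and 5.79% of the regions at the arm ends did, against 10.4% and 8.90% in the rest of the arms. For the end of X alone the share was 12.5% in replicate 1 and 6.90% in replicate 2, so it lay above the rest in replicate 1 only. On chromosome 4 there was 1 such region in each replicate.

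In the rest of the arms the median score was higher in each wider class of regions in all 3 lists, so scores were also set beside those of regions of like width. At 3 to 5 kb, the 7 Het regions of replicate 1 had a median score of 1.84 and the 5 of replicate 2 a median of 1.81, against 0.98 in the rest of the arms in both. At 2 to 3 kb, the medians of the 21 Het regions in each replicate were 1.03 and 0.91, against 0.68 and 0.65 elsewhere. On chromosome 4, the 8 regions of 5 to 10 kb in each replicate had medians of 1.54 and 1.50, against 1.24 and 1.21. In these classes the named sequences thus lay higher than regions of like width elsewhere, in both replicates. The arm ends lay higher than the rest in both replicates at 2 to 3 kb (by 0.10 and 0.06), at 3 to 5 kb (by 0.07 and 0.03) and at 5 to 10 kb (by 0.11 and 0.04). At 10 kb and more they lay lower in the replicates, with medians of 1.34 (13 regions) and 1.32 (11 regions) against 1.51 and 1.46, but in the set the difference was 0.0044. Below 2 kb the differences were within 0.06 of zero and changed sign between replicates for each of these parts except the arm ends, at 0.001 and 0.006.

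**Figure D3:**
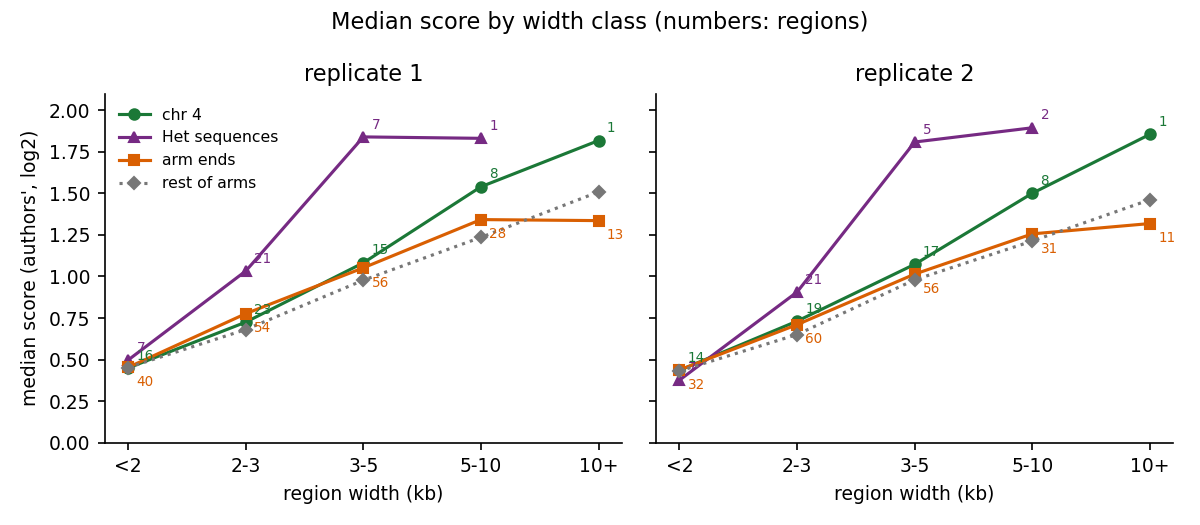
Median score (authors' log2 score) in 5 classes of region width, for chromosome 4, the Het sequences, the arm ends and the rest of the arms, in each replicate. Numbers beside the points are the regions behind them. At 3 to 5 kb the Het median lies at 1.84 and 1.81, against 0.98 in the rest of the arms in both replicates.

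Most of these regions were listed by both replicates. Of the 327 regions, 250 (76.5%, 95% Wilson interval 71.6 to 80.7) overlapped a region of each replicate by at least 1 bp, against 71.7% (70.5 to 72.8) of the 5943 other regions and 71.9% of all enriched regions of the set. The share lay near that background, and the intervals cover counting error only. The 250 regions held 90.3% of the group's bases, and over all enriched regions of the set those found in both held 90.5%. A further 23 regions (7.03%) were in replicate 1 alone, 17 (5.2%) in replicate 2 alone and 37 (11.3%) in neither, against 9.19%, 5.07% and 13.8% of all enriched regions of the set. These shares too lay near their background. In the other direction, every region that a replicate listed in these parts, 290 in replicate 1 and 284 in replicate 2, overlapped a region of the set. Such overlap was nearly complete elsewhere too, since in the rest of the arms 13 of 5177 regions of replicate 1 and 1 of 5110 of replicate 2 lacked a set region.

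The 37 regions found in neither replicate were 1245 bp wide and scored 0.34 at the median, against 3306 bp and 0.89 for the 250 found in both. Over all enriched regions of the set the contrast was alike, with 1277 bp and 0.35 against 4181 bp and 0.86. Both replicate lists stop at 1301 bp, and the set goes down to 1001 bp. Of the 27 group members narrower than 1301 bp, 26 were found in neither replicate. Those limits hold for the whole lists, and the same count was not made for the other regions. By subgroup, the share found in both was 71.6% on chromosome 4 (53 of 74), 75% on the Het sequences (33 of 44), 83.1% at the end of 2L (74 of 89), 72.9% at the end of 3L (43 of 59) and 77.0% at the end of X (47 of 61). Their Wilson intervals overlap.

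**Figure D4:**
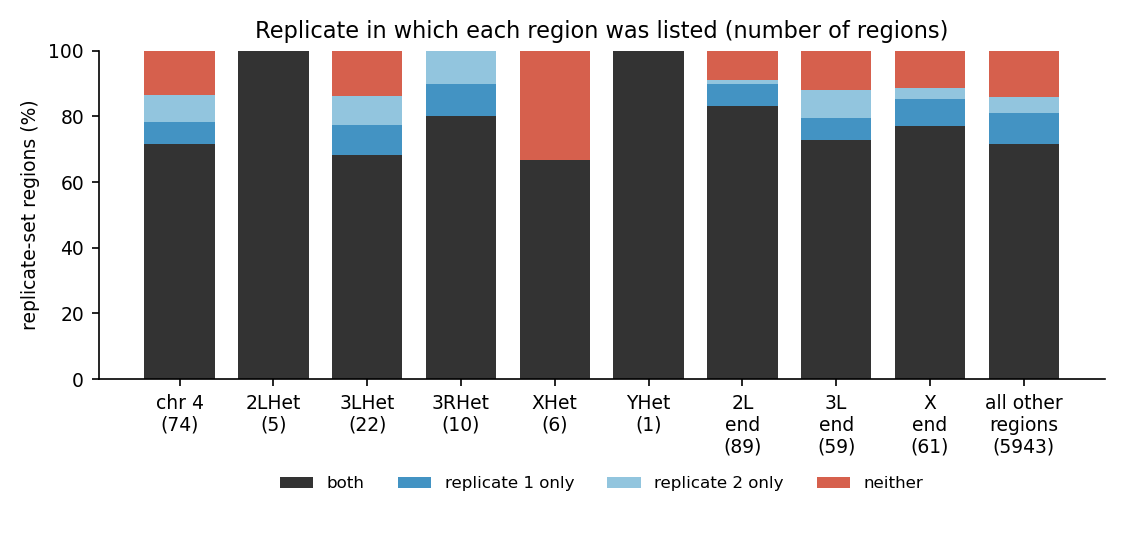
Share (%) of replicate-set regions that overlap a region of both replicates, of replicate 1 only, of replicate 2 only or of neither, by at least 1 bp. The number under each name is the number of regions. The share found in both is 71.6% on chromosome 4 and 83.1% at the end of 2L, against 71.7% of all other regions.

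The scores of the 250 regions found in both replicates differed between replicates by a median of 0.09 in size, and 94 of them scored higher in replicate 2. On chromosome 4 this was 28 of 53, and at the end of X 14 of 47, against 1378 of 4231 in the rest of the arms. Each replicate listed some set regions as 2 or more pieces. This was so for 28 of the 327 regions (8.56%) in at least 1 replicate, against 10.9% of all enriched regions of the set. None of the 28 lay on a Het sequence. The 44 Het regions of the set were 2347 bp wide at the median, against 3089 bp in the rest of the arms. Whether width bears on the number divided was not tested. Conversely, 3 regions of replicate 1 and 1 of replicate 2 spanned more than 1 of the 327 set regions.

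In the set, the listed regions of chromosome 4 began near its first base and ended near its last. The first region lay at 4888 to 6560 and the last at 1346096 to 1349022, on a sequence of 1351857 bases. The first was listed by replicate 2 alone, with a score of 2.41, and had 1.55 in the set. The next, which both replicates listed, began at 62498 in the set. In the last, replicate 1 scored 0.80 over 1435 bp and replicate 2 scored 1.29 over 2612 bp.

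In 9 windows of about 150 kb, the covered share of chromosome 4 had its highest value, 30.1% ± 0.317, between 450001 and 600000, and 24.0% ± 1.62 between 150001 and 300000 (SD, n = 2). The first of these lay above the rest of the arms in both replicates. The other was covered to 22.8% in replicate 1 and 25.1% in replicate 2, against 22.9% and 21.6% of the rest, so it lay higher in replicate 2 alone. It was lowest, at 1.97% ± 0.082, between 750001 and 900000. That window falls mostly within a stretch of 169 kb from 717783 to 886291 that held no region in any of the 3 lists. The next longest empty stretch, from 982723 to 1045393, was 62.7 kb.

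The highest score on chromosome 4 belonged to the region from 574526 to 580786, with 2.36 in replicate 1 and 2.31 in replicate 2 and a width of 6.12 kb and 6.23 kb. It lay in the most covered window. The region from 465392 to 468846, in that same window, scored 1.88 in both. That from 148216 to 158678 scored 1.82 and 1.85 and was also the widest of the chromosome, at 10.4 kb in both replicates. Next by score came 644622 to 648098, with 1.80 and 1.84, and 1218506 to 1221198, with 1.72 and 1.84. All 5 were found in both replicates, and the last of them lay in the last window of the chromosome.

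Other wide regions of chromosome 4 lay at 73772 to 83368 (9.34 kb and 9.47 kb, scores 1.42 and 1.54), at 1045394 to 1054494 (9.18 kb and 8.60 kb, 1.63 and 1.54) and at 678558 to 685768 (7.21 kb and 7.12 kb, 1.61 and 1.71). The region from 521036 to 529774 was wide but weak. Replicate 1 divided it into 2 pieces, with 4.58 kb in the larger piece with a score of 0.79, and replicate 2 listed 8.14 kb with 0.84. Of the 74 regions, 18 (24.3%) scored at or above the upper quartile of the rest of the arms in the set (1.07). At or below the lower quartile (0.38) were 21 (28.4%). Both shares lay near those that quartiles fix by definition for the rest of the arms.

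On 2LHet all 5 regions were found in both replicates. The first, from 29912 to 33856, scored 2.26 in replicate 1 and 1.84 in replicate 2. Its neighbour from 33886 to 36232 scored 0.72 in replicate 1. Replicate 2 listed both as a single region of 6135 bp, so 1.84 belongs to the pair. A region from 254206 to 256718 scored 1.04 and 1.27. The remaining 2, from 123200 to 125962 and from 167666 to 170012, were weaker. The first of them scored 0.79 in replicate 1 and 0.57 in replicate 2, and the other 0.72 and 0.64. The last 112 kb of the sequence, from 256719, were empty in all lists.

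The 22 regions of 3LHet fell into groups separated by long empty stretches. No list had a region from 711003 to 1225595, a length of 515 kb, or from 1720409 to 2189337, a length of 469 kb. Between these stretches lay its strongest pair, from 1560412 to 1564442, with 1.95 in both replicates, and from 1566492 to 1571380, with 1.98 in replicate 1 and 1.85 in replicate 2. The region from 1716874 to 1720408 followed with 1.84 and 1.81, and that from 1394632 to 1397542 with 1.43 and 1.47. The weak region from 1225596 to 1227336 scored 0.48 and 0.44. At 1655946 to 1657190 the set listed 1245 bp at a score of 0.45, and neither replicate did.

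In the first part of 3LHet, before the empty stretch, 3 regions scored above 1.00 in both replicates. These were 458702 to 461608 (1.41 and 1.47), 409714 to 412544 (1.33 and 1.26) and 605412 to 608156 (1.24 and 1.17). The others there began at 246312, 592682, 599914, 660068, 681008, 701878 and 708818, with set scores of 0.18 to 0.72, and 4 of these 7 were listed by a single replicate. In the last part, after 2189337, the region from 2396946 to 2400516 scored 1.45 and 1.19. Those starting at 2189338, 2242798 and 2409154 were found in both replicates with set scores of 0.49 to 0.56. Those starting at 2228132 and 2235532 were found in neither. The one at 2228132 was 1087 bp wide and had a set score of 1.55, the same stored value as the first region of chromosome 4.

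On 3RHet the 10 regions all lay from 1704238 on, in a sequence of 2517507 bases. The first 1704 kb held no region of replicate 1 and only the first bases of a replicate 2 region that overlaps the first set region. The region from 1767318 to 1770292 had the highest score of any Het sequence in the set, with 2.51 in replicate 1 and 2.16 in replicate 2. The widest Het region lay from 2469504 to 2476946, at 7182 bp and 7312 bp, with scores of 1.83 and 1.94. The region from 1704238 to 1706950 scored 1.6 and 1.70, and that from 1806612 to 1810896 scored 1.25 and 1.43.

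Lower scores on 3RHet belonged to regions from 1822390 to 1824870 (1.08 and 0.93), from 1933738 to 1936622 (1.03 and 0.91), from 1897702 to 1899986 (0.71 and 0.59) and from 2503928 to 2506646 (0.73 and 0.80). The region at 1811302 to 1812682 was listed by replicate 1 alone, with 0.62, and that at 2457004 to 2459040 by replicate 2 alone, with 0.78. A stretch of 520 kb between 1936623 and 2457003 lay free of regions except at its edges.

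All 6 regions of XHet lay within 28.1 kb, from 49548 to 77600, of a sequence of 204112 bases. The region from 73848 to 77600 scored 1.11 in replicate 1 and 1.00 in replicate 2, that from 59950 to 62690 scored 1.07 and 0.86, that from 67374 to 69802 scored 0.82 and 0.53, and that from 49548 to 51612 scored 0.52 and 0.38. All 4 scored lower in replicate 2. The remaining pair, starting at 51696 and 57008, were 1223 bp and 1139 bp wide and in neither replicate. YHet had a single region, from 304570 to 306850, with 1.11 in replicate 1 and 1.16 in replicate 2. The labels do not give the sex of the larvae.

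At the arm ends, coverage was lower in the last 1 Mb of the sequence than in the stretch between it and the boundary, on each arm and in each replicate. On 2L it was 7.14% ± 0.172 in the last 1 Mb, against 18.6% ± 0.574 in the stretch before it. On 3L it was 2.30% ± 0.051, against 10.1% ± 0.021, and on X 7.78% ± 0.206, against 12.8% ± 0.975 (SD, n = 2). Scores did not follow this order. On 2L the median was 1.05 (replicate 1) and 0.97 (replicate 2) over 21 regions each in the last 1 Mb, against 0.83 and 0.85 before it. On 3L it was 1.19 and 1.13 over 9 regions each, against 0.70 and 0.73. On X it was lower, with 0.76 and 0.74 in the last 1 Mb, against 1.03 and 0.93 before it. The last 1 Mb thus had higher median scores than the stretch before it on 2L and 3L and lower ones on X, in both replicates.

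**Figure D5:**
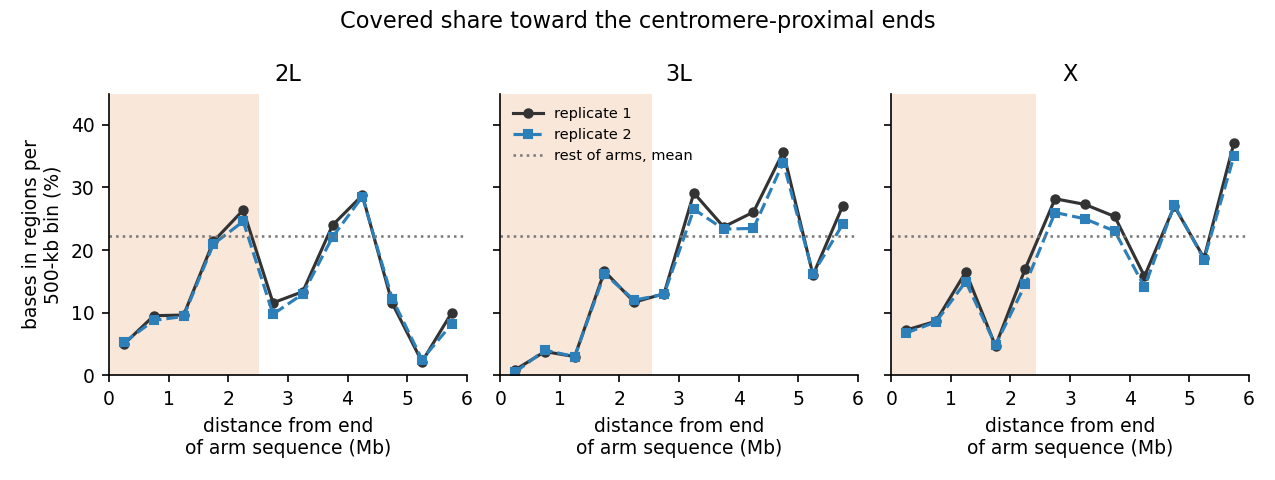
Share of bases (%) inside enriched regions in 500-kb bins, by distance (Mb) from the end of the sequence of 2L, 3L and X, in each replicate. Shading marks the part that belongs to the arm ends, and the dotted line is the mean of the rest of the arms, 22.3%. The last bin is covered to 5.13% on 2L, 0.685% on 3L and 7.00% on X.

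The fall along the arms was not even. On 2L the 500-kb bins held 25.5% ± 1.28 at 2 to 2.5 Mb from the end and 21.2% ± 0.301 at 1.5 to 2 Mb, then 9.52% ± 0.154, 9.15% ± 0.530 and 5.13% ± 0.187 toward the end. On 3L they held 11.8% ± 0.229, 16.4% ± 0.294, 2.99% ± 0.001, 3.91% ± 0.164 and 0.685% ± 0.266. On X the bin at 1.5 to 2 Mb held 4.77% ± 0.102, less than the 3 bins nearer the end, which held 15.7% ± 1.09, 8.57% ± 0.091 and 7.00% ± 0.321. Bins this low were not limited to the ends, since 2L also had 2.35% ± 0.253 at 5 to 5.5 Mb.

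Values near each boundary show what the rule took in. On 2L the first regions inside, starting at 20637088 and 20644340, scored 0.50 and 0.48 in the set, and the last regions outside, starting at 20479156 and 20482296, scored 0.39 and 0.50. On 3L the first inside, at 22058858 and 22063212, scored 0.27 and 1.94, and the last outside, at 21945902 and 21964252, scored 0.50 and 0.79. On X the first inside, at 20015842 and 20042470, scored 0.24 and 0.45, and the last outside, at 19778358 and 19793274, scored 0.94 and 0.41. Not all of these were found in both replicates. Those starting at 20479156, 22058858 and 19793274 were in neither. The region at 20015842 was in replicate 2 alone and that at 20042470 in replicate 1 alone, and the others were in both.

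At the end of 2L the widest regions lay in its outer part. The region from 20874208 to 20892586 measured 17.5 kb and 18.1 kb in the replicates and scored 1.35 and 1.37. That from 20791314 to 20807570 was 15.8 kb and 16.2 kb wide and scored 1.34 and 1.30. The region from 20907170 to 20919708 was 12.2 kb and 10.3 kb wide and scored 1.16 and 1.21. The first and the last of these belonged to a run of 8 regions with gaps of at most 5 kb, from 20857746 to 20928300, which held 15.3% of all bases listed at this end of the arm in the set. Replicate regions filled 80.8% and 74.1% of that run.

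By score in the set, the end of 2L was led by the regions from 21307100 to 21317924 (1.85 and 1.78), from 20756700 to 20765262 (1.80 and 1.69) and from 21750866 to 21759598 (1.72 and 1.68). The region nearest the end of the sequence, from 22959882 to 22963082, lay 48.5 kb from it and scored 1.06 and 1.02. The longest empty stretch, from 21402387 to 21572479, measured 170 kb.

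At the end of 3L wide regions stood in 2 adjoining runs. From 22812322 to 22847040, 3 regions filled 77.7% of the run in replicate 1 and 74.0% in replicate 2, and from 22856050 to 22884560, 3 more filled 88.3% and 87.7%. The widest in the set, from 22822578 to 22837532, measured 15.0 kb there. Replicate 1 listed it as 2 pieces, the larger 9.45 kb wide with a score of 2.09, and replicate 2 as a single region of 10.8 kb with 1.91. The region from 22856050 to 22867642 measured 11.3 kb in replicate 1, while the larger of 2 pieces in replicate 2 measured 7.25 kb, and scored 1.98 and 1.75. The region from 22812322 to 22821266 agreed more closely, at 8.61 kb and 8.54 kb, with 1.79 and 1.80.

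The highest set score of the whole group, 2.58, stood on 3L from 23515034 to 23516034. It was 1001 bp wide, the narrowest width in the set, and neither replicate listed it. Among regions found in both replicates, 23730114 to 23732920 came first at this end in the set, with 2.03 in replicate 1 and 2.11 in replicate 2, and 22063212 to 22071338 followed with 2.12 and 1.89. Beyond 23732920 the sequence was nearly empty. Stretches of 288 kb, 200 kb and 303 kb without any listed base were separated by the region from 24020792 to 24024150, with 1.55 and 1.6, and a weak region at 24223934 that replicate 1 alone listed, with 0.48. The last region, from 24528334 to 24532126, scored 1.19 and 1.13, only 11.4 kb from the end.

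In the set, the 3 widest regions of the group lay at the end of X. Regions of 10 kb or more numbered 7 at the end of X and 5 at the end of 2L in replicate 1. In replicate 2 they numbered 4 and 6, so the order turned, and in the set each end had 6. The region from 20359496 to 20384974 spanned 25.5 kb in the set, and both replicates divided it, with largest pieces of 19.9 kb and 19.1 kb that scored 1.28 and 1.23. The region from 20922232 to 20945972 was 22.9 kb wide in replicate 1, while replicate 2 listed 3 pieces of which the largest was 9.88 kb, with scores of 1.30 and 1.26. The region from 20105962 to 20128956 spanned 23.0 kb in the set and was divided in both, with largest pieces of 13.4 kb and 7.93 kb and scores of 1.22 and 1.70. At the end of X, 9 of 61 regions were divided by at least 1 replicate, against 8 of 89 at the end of 2L and 5 of 59 at the end of 3L. Over all enriched regions of the set this was 685 of 6270 (10.9%). The widths of divided regions depended on the list, at the end of X as elsewhere.

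By score in the set, the end of X was led by the regions from 21875068 to 21886072 (1.73 and 1.63), from 20051280 to 20054992 (1.65 and 1.55) and from 21192076 to 21196880 (1.57 and 1.63). Each of these was found in both replicates. Empty stretches of 364 kb, from 20534149 to 20897831, and of 343 kb, from 21501743 to 21844505, broke up the sequence. Neighbouring regions were a median of 4852 ± 10.6 bp apart at the end of X, closer than the 11235 ± 1632 bp of 2L and the 11969 ± 1802 bp of 3L (SD, n = 2). In the rest of the arms the median gap was 5147 ± 247 bp. The last region, from 22413540 to 22416506, scored 1.41 and 1.22.

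The table of genes used here is on release 6 and the regions are on release 5, so no region was assigned to a gene. No genome sequence of release 5 was used here, so the sequence under these regions is not shown.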

How the data were processed

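Coordinates are those of FlyBase release 5, per the file headers. The submitters' processing notes name Bowtie 0.12.7 but give it no role. How regions were called, at what threshold, with what use of the inputs, and how replicates were joined is not stated in the labels or headers. Each region deposited by the authors carries 1 score, taken as log2. The base was read from the values: differences from the most common score of a list were log2 ratios of whole numbers (denominator at most 400, numerator at most 1600, relative tolerance 1e-09) for 34.6% to 52.9% of regions, against at most 0.479% with base e or 10. No read counts are given, so depth is unknown. Scripts used scipy 1.17.1, pandas 2.3.3 and numpy 2.4.6 under Python 3.11.15. A set region was found in a replicate if they shared at least 1 bp, and took the score and width of the replicate region sharing most bases. Arm regions were assigned by start. The rest of the arms means 2L, 2R, 3L, 3R and X outside the 3 ends. Overlap counting was tested on simulated lists. Members and lists were chosen with earlier results of these data known, and windows, width classes, runs and the last 1 Mb after the values were seen. By rule, the text names every Het region, the 5 highest-scoring and 5 widest regions and both outermost ones on chromosome 4, the 3 highest-scoring, 3 widest and last at each arm end, those nearest each boundary, and any region in neither replicate whose score exceeds its subgroup's median. The regions on 3L at 24020792 and 24223934 were named after their values were seen. Alternatives were other overlaps and boundaries, the higher-scoring 50% of lists, the set list, each replicate alone and other make-ups of the group.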

Additional observations from a re-analysis of the deposited data

How the results depend on the processing

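No paired analysis was possible because the region lists used here belong to a single group of samples, the ChIP replicates, so no 2 sample groups could be matched by number. The comparisons with the rest of the arms were made within each replicate. The share of regions found in both replicates was 76.5%. It was 71.9% with a reciprocal overlap of 50% (65.9% of other regions) and 83.3% among regions of at least 1301 bp (78.3% of other regions). In the higher-scoring 50% of the set it was 96.1% (98.5% of other regions, so the order turned). When only replicate 2 was asked for it was 81.7% (76.7% of other regions), and with only replicate 1 it was 83.5% (81.0% of other regions). The covered share stayed below the rest of the arms in every alternative. The difference of -14.9 percentage points became -17.5 with the set's own list, -11.4 in the higher-scoring 50%, -16.0 with the arm ends 500 kb shorter, -15.7 without chromosome 4, -11.0 without the Het sequences and -18.2 without the arm ends, and -15.4 to -14.4 with a replicate left out. The difference in median score, 0.03, was 0.063 in the replicate set and 0.01 to 0.05 with a replicate left out. It was 0.039 ± 0.008 in the higher-scoring 50%, 0.058 ± 0.039 with the arm ends 500 kb shorter and 0.050 ± 0.034 without chromosome 4. Without the Het sequences it was 0.015 ± 0.036 and without the arm ends 0.013 ± 0.069 (SD, n = 2). In these last cases the SD exceeded the difference. The difference in median width, -389 bp, became -1514 bp in the higher-scoring 50%, -261 bp without the Het sequences and -677 bp without the arm ends, and was -451 to -326 bp with a replicate left out. The causes of these changes were not tested.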

Other observations

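Some scores recur exactly. Of the 327 regions, 17 share their stored score with another region of the set. The region on 3L from 22794588 to 22795866, with 0.26, shares it with 23 others. The first region of chromosome 4 and the region on 3LHet from 2228132 share 1.55 with each other only. Of the 17, 10 were not found in both replicates. Neither count was made for the whole set, so both stand without a background. On chromosome 4, the region from 1291230 to 1292480, with 0.64, was found in neither replicate although its score exceeded the median of that chromosome.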
